A study of Mus musculus with 20 samples.

Results

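The comparison set the maturing fat cells of days 4 and 7 after hormone induction against the cells of days 2 and 3 in a culture time course of 3T3-L1, a mouse embryo fibroblast line that can be turned into adipocytes. Its members were the 8 samples of these 4 time points, out of 20 samples of 10 time points, taken by their labelled day. RNA of each time point was hybridised to 2 Affymetrix array types with different probe sets, array A and array B. The other time points were preconfluent and confluent cells, 6, 12 and 24 hours, and day 28. All cultures of the 4 days compared were the same line, had been taken to confluence and then induced by the MDI protocol, in standard use isobutylmethylxanthine, dexamethasone and insulin. Days 4 and 7 thus differed from days 2 and 3 in time after induction as far as the labels tell, and a medium change within that span is not given. Each time point was 1 sample per array type. The days of a side were therefore neighbours in time, not replicates, and a p-value here measures only the spread between neighbouring time points, which may hold technical differences.

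3T3-L1 preadipocytes that receive the hormones divide again for a short while, leave the cell cycle and then switch on the fat cell genes under the factors PPARγ and C/EBPα. Maturation is the stage after that switch, in which triglyceride droplets grow, insulin-regulated glucose uptake appears and the fibroblast's matrix and cytoskeleton are remodelled. The comparison asks which transcripts still moved after the adipocyte programme had begun.

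Deposited intensities near background were raised to a floor before log2 was taken, set on each array type at the size of the 10th percentile of its values, which is below 0. In early Affymetrix summaries a value below 0 means that the mismatched control probes were brighter than the matching ones, and which summary was used here is not given in the sources used. Of 13069 probe sets that are not controls, 7582 were bright enough to be tested, and 4823 of these carried 1 gene symbol, for 4115 genes. The arrays had like depth of signal, with 3100 to 3277 probe sets above the detection limit on array A and 2918 to 2997 on array B over the 4 days. Control ratios that reflect RNA quality moved with the comparison. For Gapdh on array A the 3-prime control signal divided by the 5-prime signal was 1.27 and 1.6 on days 2 and 3 and 1.14 and 1.13 on days 4 and 7, and that of beta-actin was 1.41 and 1.72 against 1.33 and 1.29. On array B the Gapdh ratio was 0.762 and 0.765 against 0.737 and 0.748, and the beta-actin ratio was 1.08 and 1.06 against 1.02 and 0.955. All 4 ratios were lower on days 4 and 7 without overlap, and their part in the results was not tested. In cultures measured in bulk, fewer cells of a type and less RNA per cell cannot be told apart.

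A probe set was counted as higher or lower when both of days 4 and 7 lay beyond both of days 2 and 3 and the geometric means differed at least 2-fold. By this rule 247 probe sets (3.26% of those tested) were higher and 303 (4.00%) were lower on days 4 and 7. Among named genes, each read from its brightest probe set, 148 of 4115 (3.60%) were higher and 181 (4.40%) were lower. Without the 2-fold minimum, the sides did not overlap for 743 genes in the upward direction (18.1%) and for 769 in the downward direction (18.7%). The median difference over all named genes was 0.00 on the log2 scale. A limma model of 5 stages over the 10 time points, with 5 residual degrees of freedom, called 13 probe sets up (0.171%) and 8 down (0.106%) at an adjusted p under 0.05. At an unadjusted p under 0.05 the same model gave 430 up and 364 down. In 12 of these 21 calls 1 side lay wholly at the floor. Without day 2 the model called 2 up and none down (232 and 191 at an unadjusted p under 0.05), without day 7 it called 1 up and none down (347 and 357), without day 3 it called 24 and 4, and without day 4 it called 80 and 37. Thrsp alone of the 21 was called without each of the 4 days in turn. The size rule, which asks less of 3 time points than of 4, gave 471 higher and 535 lower probe sets without day 3 and 545 and 548 without day 4. "Rose" and "fell" are used below for these limma calls only, and "higher" and "lower" for the size rule.

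**Figure D1:**
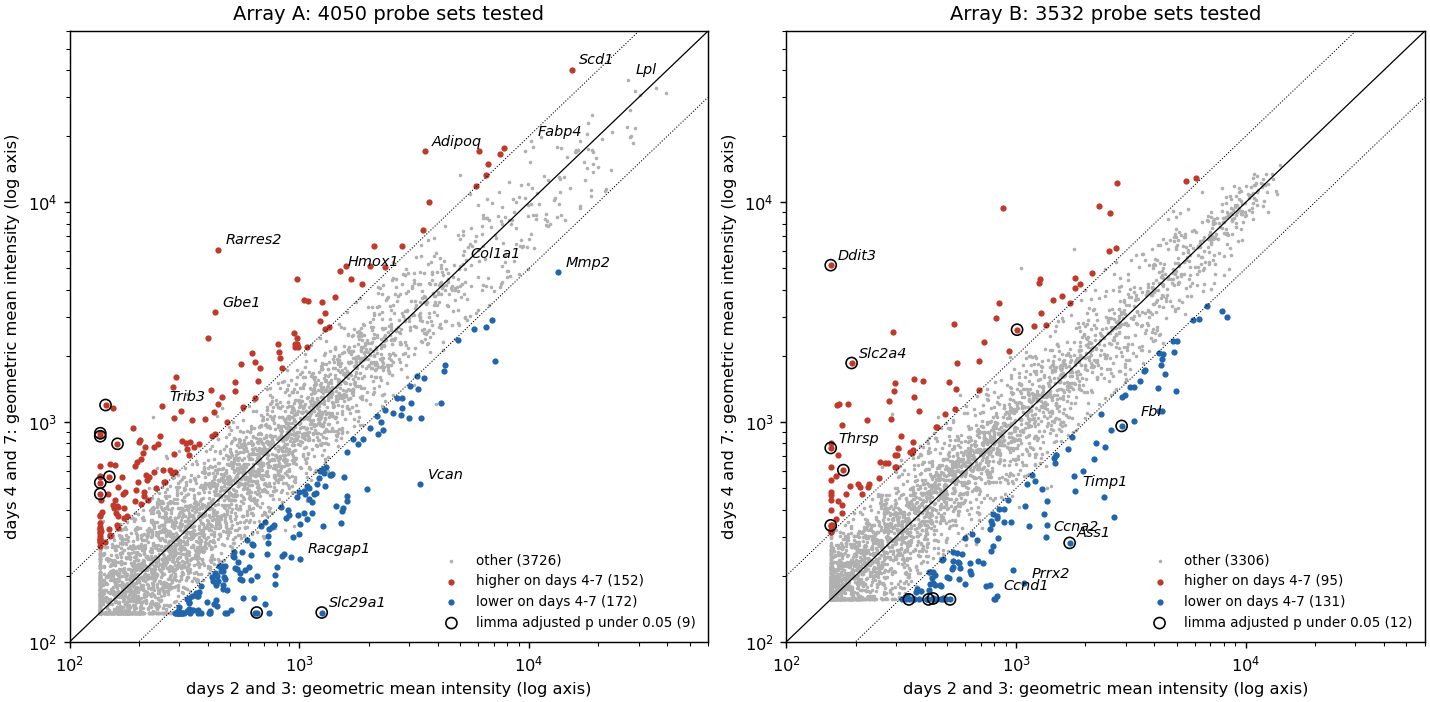
Geometric mean intensity of days 2 and 3 (horizontal, log axis) against that of days 4 and 7 (vertical, log axis) for every probe set tested, array A left and array B right, with the solid line marking equality and dotted lines 2-fold. The 247 higher probe sets are red, the 303 lower ones blue, and black rings mark the limma calls, many of which sit on the floor of 1 side.

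The rule that chose the probe sets favours a step between days 3 and 4, so the steps are given as a description. Of the 247 higher probe sets, 131 made their largest step there, 67 between days 2 and 3 and 49 between days 4 and 7. Of the 303 lower probe sets, 190 made their largest step between days 3 and 4, 39 before and 74 after. The median steps were 0.32, 0.97 and 0.39 log2 units for the higher set and -0.30, -1.03 and -0.22 for the lower set. The absence of overlap forces the sign of the middle step and raises its size. The higher set reached its highest level on day 7 for 108 probe sets, on day 28 for 68 and on day 4 for 49. The lower probe sets had their highest levels at many earlier times, 79 of them in preconfluent cells, 60 at 24 hours and 48 at 12 hours, against 35 on day 2 and 25 on day 3.

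**Figure D2:**
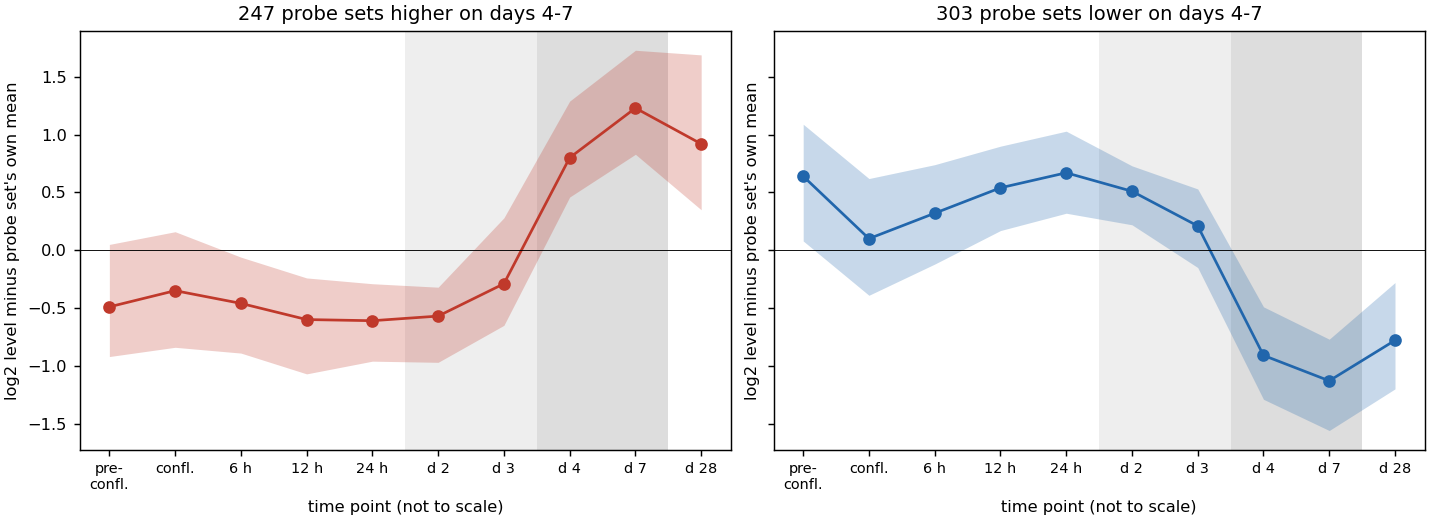
Median log2 level, relative to each probe set's own mean over 10 time points, of the 247 higher (left) and 303 lower (right) probe sets, with the band from the first to the third quartile. Light grey marks days 2 and 3 and dark grey days 4 and 7, which chose the sets, so the step between them is built in. For 106 of the higher sets at least 1 of days 2 and 3 lay at the floor, which flattens the early course.

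Ddit3, which encodes the stress factor CHOP, had the largest difference of all named genes. Its intensity was -405 and -95 on days 2 and 3 and 3270 and 8190 on days 4 and 7. It had also been high in confluent cells, at 2540, then below 0 from 6 hours on, and it lay at 2570 on day 28. Ddit3 rose at least 33.2-fold, by 5.05 ± 0.67 log2 units (SE of the 5-stage limma model, 2 time points a side, limma adjusted p = 0.0443). All its values from 6 hours to day 3 were set to the floor. Those stages therefore gave no spread to this SE and p.

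Trib3, a pseudokinase that responds to cell stress, was at 169 and 377 on days 2 and 3 and at 669 and 2090 on days 4 and 7. It was 4.69-fold higher and back at 323 on day 28, within its range on days 2 and 3. Hmox1, the haem-degrading enzyme heme oxygenase, read 1280 and 1780 and then 2520 and 9390. Both genes thus peaked on day 7, as Ddit3 did. Herpud1, a membrane protein of the endoplasmic reticulum, was highest in confluent cells, at 666. It was at 88 and 342 on days 2 and 3 and at 563 and 591 on days 4 and 7, at least 2.68-fold higher. Creld2, another protein of the endoplasmic reticulum, went the other way, from 521 and 409 to 193 and 252. Under the same rule Hmox1 did not reach 2-fold without day 7 (1.67-fold), nor Herpud1 without day 2 (1.68-fold), nor Creld2 without day 2 or day 4 (1.85-fold and 1.83-fold).

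Among 25 tested genes of the stress and unfolded protein response, 4 were higher and 1 was lower, and 13 lay above and 3 below without overlap, with a median of 0.29 log2 units. The general chaperones were not among the 4. Hspa5, the main chaperone of the endoplasmic reticulum, measured 6800 and 6780 against 7280 and 9410, a difference of 0.29 log2 units. Hspa8, the constitutive cytosolic chaperone, measured 13300 and 9240 against 8890 and 10800, and its sides overlapped. Sqstm1, a cargo receptor of autophagy from the lysosome list, stood at 6090 and 5630 and then at 8110 and 17300, 2.02-fold higher and highest on day 7. Without day 7 Sqstm1 was 1.39-fold higher and without day 3 it was 1.95-fold higher. The count of higher stress genes was 8 without day 4 and 3 to 4 without any other of the 4 days.

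**Figure D3:**
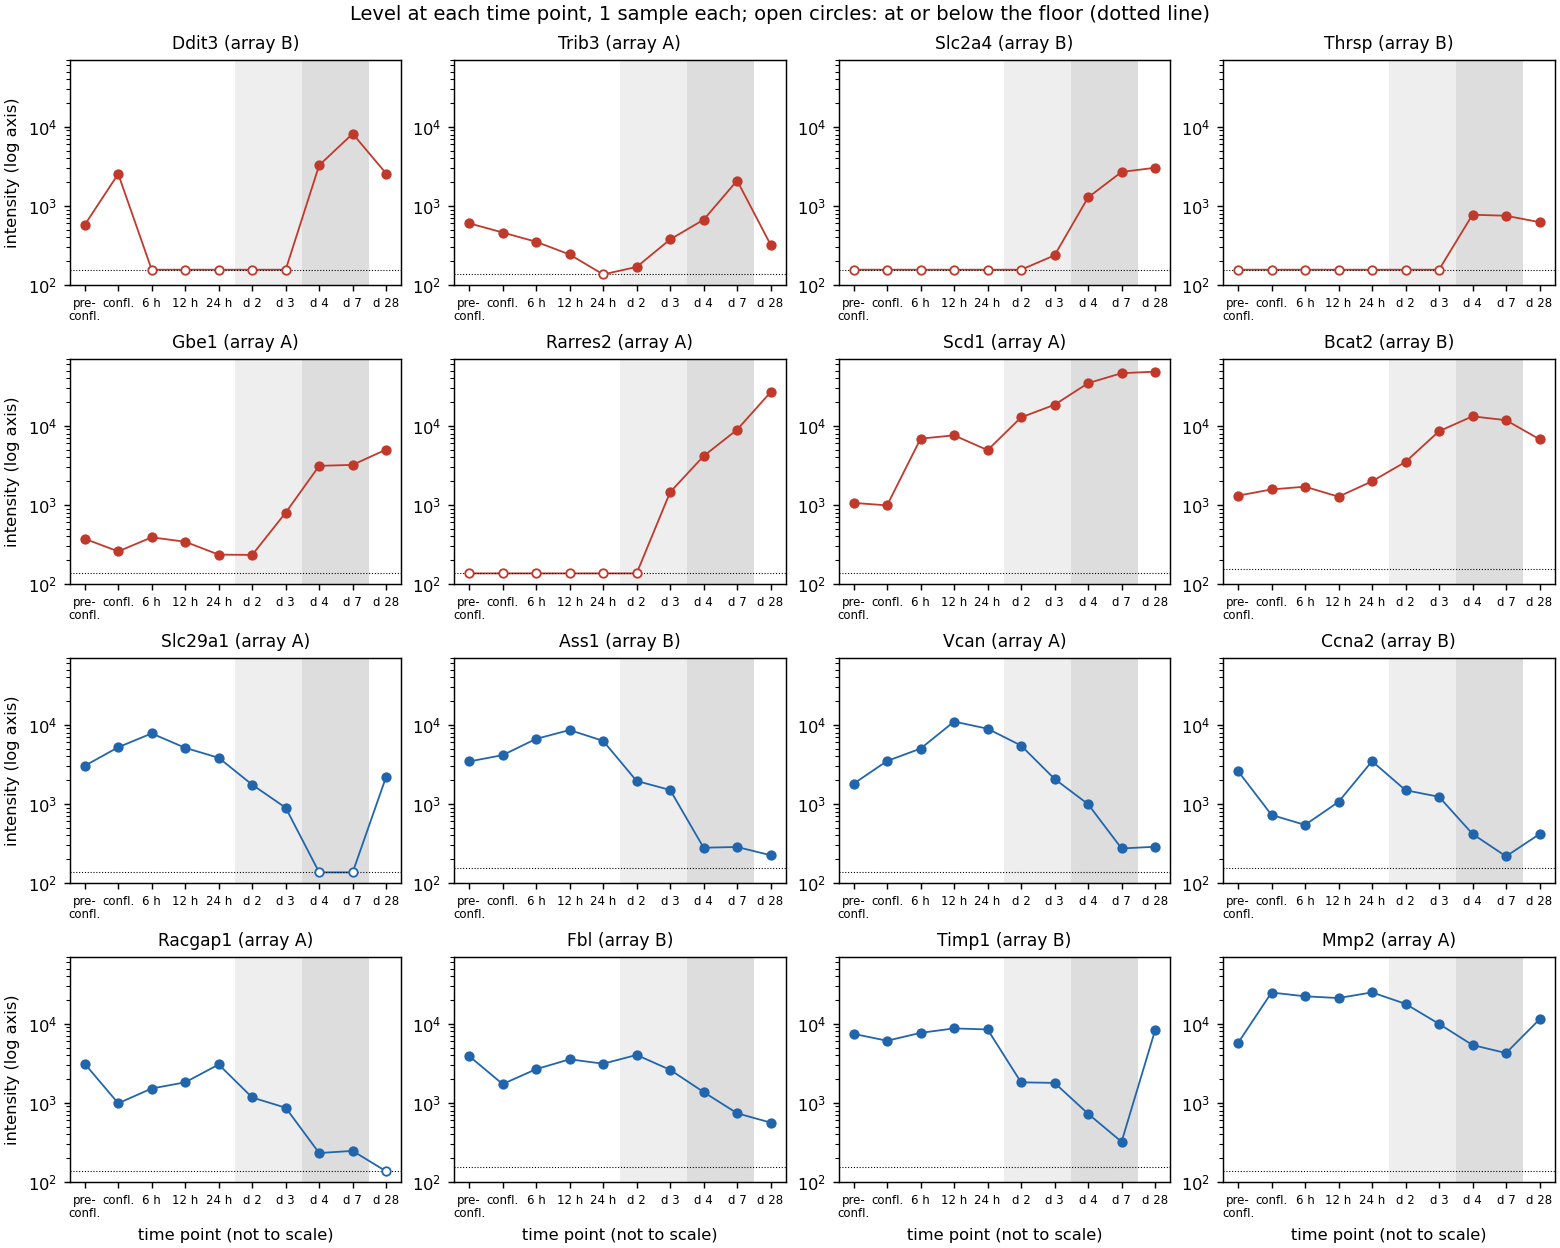
Intensity (log axis) of 8 genes that were higher and 8 that were lower on days 4 and 7, at each of 10 time points with 1 sample each. Open circles lie at or below the floor (dotted line), light grey marks days 2 and 3, dark grey days 4 and 7, and Ddit3, Trib3, Slc29a1 and Timp1 change course again on day 28.

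Genes of glucose uptake and storage were higher on days 4 and 7. Slc2a4 encodes GLUT4, the transporter that insulin moves to the cell surface. One of its probe sets read 77 and 540 on days 2 and 3 and 2080 and 3200 on days 4 and 7. The other, of the same transcript, read -75 and 237 and then 1280 and 2690, and by this one Slc2a4 rose at least 9.65-fold (limma adjusted p = 0.0303, against 0.0934 for the first). Neither probe set was above the floor at any time before day 3. The earlier stages thus gave no spread to the limma SE and p of either. Both passed the brightness filter only through day 3 and later times. Slc2a1, the basal transporter GLUT1, was at 286 and 213 and then at 666 and 1130, 3.52-fold higher. The 2 glucose transporters were thus both low on days 2 and 3, but GLUT1 had been at 698 in confluent cells.

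Of 14 tested genes of glucose uptake and glycolysis, 3 were higher and none lower, 10 lay above without overlap, and the median was 0.31. The third member was Pfkl, the liver-type phosphofructokinase, at 2020 and 2750 against 5680 and 4500. Aldoa, an aldolase, measured 10300 and 12300 against 17200 and 22800. Gapdh, at 12000 and 11800 against 12800 and 12700, differed by 0.10 log2 units. Its 3-prime, middle and 5-prime control probe sets, left out of the tests, disagreed between array types. They differed by 0.54, 0.53 and 0.87 log2 units on array A and by -0.22, -0.14 and -0.18 on array B. In glycogen metabolism 2 of 10 genes were higher and none lower (median 0.26). Gbe1, the glycogen branching enzyme, was at 233 and 798 on days 2 and 3 and at 3120 and 3210 on days 4 and 7, 7.34-fold higher. Pgm1, which links glucose 1-phosphate to glycolysis, was at 2850 and 4160 against 8150 and 6930. Pdk1, a kinase that restrains pyruvate dehydrogenase, was at 256 and 170 and then at 947 and 552, 3.47-fold higher. Rhoq, the small GTPase TC10 of the insulin pathway, was at 1090 and 1880 against 2980 and 4610. Without day 2 the folds of Pfkl, Pgm1 and Rhoq were 1.84, 1.80 and 1.97, short of the rule, as was that of Pfkl without day 4 (1.91). The remaining 10 of the 12 insulin signalling genes were neither higher nor lower by the rule, and Akt1, a central kinase of the pathway, measured 3510 and 3330 against 2230 and 2150.

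Lipid genes were higher in a mixed pattern, and several were already near their day 7 level on day 3. Thrsp, the nuclear protein Spot 14 linked to fatty acid synthesis, had the smallest adjusted p of the comparison. It was at 20 and 117 on days 2 and 3, below the floor as at every earlier time, and at 774 and 751 on days 4 and 7. Thrsp rose at least 4.89-fold (2.29 ± 0.15 log2 units, SE; limma adjusted p = 0.00455) and remained at 623 on day 28. Leaving out each of the 4 days in turn gave Thrsp adjusted p-values from 0.00374 to 0.0482 by limma. All 7 time points before day 4 were set to the floor for Thrsp, so no spread among these values entered its SE and p, and it passed the brightness filter only through the days on which it was high. Scd1, the desaturase that makes oleate, measured 12800 and 18500 and then 34700 and 46400. Tkt, a transketolase of the pentose phosphate path, measured 1540 and 2920 and then 5790 and 6950. These 3 were the higher genes among 14 of fatty acid synthesis (none lower, median 0.41). The median of that list was 0.15 without day 2, 0.53 without day 3, 0.05 without day 4 and 0.73 without day 7. It had 5 higher and 1 lower genes without day 3, 3 and 1 without day 4, and 6 and none without day 7. Fasn, fatty acid synthase, overlapped, with 5990 and 7980 against 10800 and 4700.

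In triglyceride synthesis 1 of 6 genes was higher (median 0.36). Gpd1, which makes glycerol 3-phosphate, was at 677 on day 2, 11200 on day 3, and 11900 and 12500 on days 4 and 7. Its 4.43-fold difference rested on day 2 alone. Without day 2 Gpd1 was 1.09-fold higher. Dgat2, the last enzyme of the path, overlapped at 4560 and 10200 against 10600 and 7140. Among 7 genes of droplet coats and lipases 2 were higher and none lower (median 0.93). Plin2, a droplet coat protein, measured 1890 and 2190 and then 4410 and 6010. Bscl2, the droplet assembly protein seipin, measured 187 and 351 and then 671 and 542. Lipe, hormone-sensitive lipase, lay above without overlap but by only 1.29-fold, at 12600 and 14900 against 15600 and 20000. In cholesterol synthesis Fdft1 and Sqle, which act in sequence at squalene, were the 2 higher genes of 6 (median 0.21), at 443 and 1540 against 2200 and 1730 and at 251 and 415 against 937 and 606. Fdft1 and Sqle had both been highest in preconfluent cells, at 3140 and 1040. The median level of the cholesterol list was also highest there. The list had a median difference of -0.17 without day 2 and 0.69 without day 3. Without day 2 the medians of the triglyceride and droplet lists were 0.06 and 0.25, and without day 3 there were 5 higher droplet genes. Without day 2 neither Fdft1 nor Sqle reached 2-fold (1.27-fold and 1.82-fold), nor did Bscl2 (1.72-fold), and without day 4 Sqle was at 1.88-fold.

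The list of secreted fat cell products, which also holds the membrane receptor Cd36, gave the largest median of the lists with at least 5 tested genes. It was 1.08 over 10 genes, with 3 higher and none lower. Adipoq, adiponectin, was at 1150 on day 2 and 10700 on day 3 and at 17700 and 16500 on days 4 and 7, 4.87-fold higher. Hp, haptoglobin, measured 993 and 3290 and then 5040 and 4080. Cd36, the fatty acid uptake receptor, measured 1110 and 5930 and then 8790 and 9090. Cd36 was also the 1 higher gene among 9 tested of fatty acid carriers and uptake (none lower, median 0.13). Adipoq, Hp and Cd36 all differed most from day 2 and had made most of their climb by day 3. Without day 2 their folds were 1.60, 1.38 and 1.51 and the median of the list was 0.49, so none of the 10 was then higher by the rule. Retn, resistin, was at 2740 and 9220 and then at 24900 and 7050, so that its sides overlapped. Outside the lists, Rarres2, which encodes the adipokine chemerin, was at -713 and 1450 and then at 4150 and 8950, at least 13.7-fold higher, and reached 26700 on day 28. Apoc1, an apolipoprotein, was at 88 and 185 and then at 417 and 3480, from a probe set annotated as reading several related genes. Ghrh, annotated as growth hormone releasing hormone, was at 18 and 174 and then at 450 and 2980. Rarres2, Apoc1 and Ghrh continued upward to day 28, where the last of them stood at 7930. Mrap, the accessory protein of the corticotropin receptor, was at 18 and 1170 and then at 2210 and 2620. Adig, adipogenin, was at -149 and 617 and then at 1900 and 1360.

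Of 11 adipocyte marker genes 9 had a tested probe set, and Plin1 and Cfd were matched to none. Only Slc2a4 among the 9 was below the floor on any of the 4 days, so both sides of the comparison carried adipocyte transcripts. Fabp4, the fatty acid carrier, was already at 5210 and 19800 on days 2 and 3 and measured 28400 and 12700 on days 4 and 7. Pparg read 894 and 1410 and then 1640 and 1210, and Lpl, lipoprotein lipase, read 20700 and 35200 and then 33300 and 39300. These 3 markers overlapped between the sides. Cebpa, at 1050 and 1490 and then 1700 and 1990, lay above without overlap but by 1.47-fold. Of the 11 tested adipogenic transcription factors none was higher or lower by the 2-fold rule (median -0.04). Cebpb, the early factor, measured 9090 and 4500 against 6410 and 4260.

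Oxidative phosphorylation genes mostly lay above by small amounts. Of 46 tested genes of oxidative phosphorylation, 24 lay above and 1 below without overlap, against 18.1% and 18.7% of all genes, yet only 2 passed the 2-fold minimum (median 0.32). These were Uqcrc2, a core subunit of complex III, at 864 and 1350 against 2520 and 1900, and the complex I subunit Ndufa10, at 132 and 44 against 362 and 393. The 31 genes of fatty acid oxidation and the peroxisome had a median of 0.49, with 17 above and 1 below without overlap and 3 higher. Decr1, an enzyme for unsaturated fatty acids, measured 525 and 1230 and then 2380 and 2140. Crat, carnitine acetyltransferase, measured 2650 and 2980 and then 6760 and 5940, and its probe set on array B gave 2.25-fold as well. Pxmp2, a membrane channel of peroxisomes, was at 264 and 354 against 748 and 783. Uqcrc2 and Decr1 were below 2-fold without day 2, at 1.62-fold and 1.84-fold, and Uqcrc2 without day 4 as well, at 1.75-fold. The median of the oxidative phosphorylation list was 0.14 without day 2 and 0.54 without day 3. In the citric acid cycle and pyruvate list 7 of 18 genes lay above without overlap and Pdk1 alone was higher (median 0.42). Without day 3 there were 5 higher genes in that list, without day 7 there were 3, and without day 2 there were 2. Its median was 0.23 without day 2, and 0.19 without day 4, with 2 higher and 1 lower. In the list of mitochondrial carriers and translation none of 21 genes was higher or lower, 5 lay above and 1 below without overlap, and the median was 0.07. The fatty acid oxidation list had 3 to 6 higher genes with a day left out, 6 without day 3 or day 7, and a median of 0.27 without day 2.

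With all 4 days, breakdown of amino acids had the most higher genes of the metabolic lists, a lead not kept without day 2 or day 7. Of 17 tested genes of branched-chain and other amino acid breakdown 6 were higher and none lower (median 0.57), and all 6 act on branched-chain amino acids or their products. Bcat2, the mitochondrial aminotransferase of the first step, measured 3500 and 8560 and then 13200 and 11800. Bckdha and Dbt are subunits of the next enzyme, the branched-chain ketoacid dehydrogenase. Bckdha measured 554 and 823 and then 1350 and 2310, and Dbt 12 and 64 and then 328 and 263. Further down the path, Hibch was at 223 and 813 against 1130 and 1090, Mccc1 at 516 and 792 against 1160 and 1440, and Pccb at 192 and 49 against 358 and 482. The higher genes thus covered early and late steps of the path. Without day 2 the count was 3 of 17, with Bcat2, Hibch and Mccc1 at 1.45-fold, 1.37-fold and 1.64-fold. Dbt was at a bound of at least 1.93-fold without day 4, and Mccc1 was at 1.82-fold without day 7. Bckdha came to just under 2-fold without day 7. Bcat1, the cytosolic form of the aminotransferase, had been at 3150 in preconfluent cells and lay at or below the floor on all 4 days. By limma no gene of the lists in this paragraph or the one before passed an adjusted p of 0.05.

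**Figure D4:**
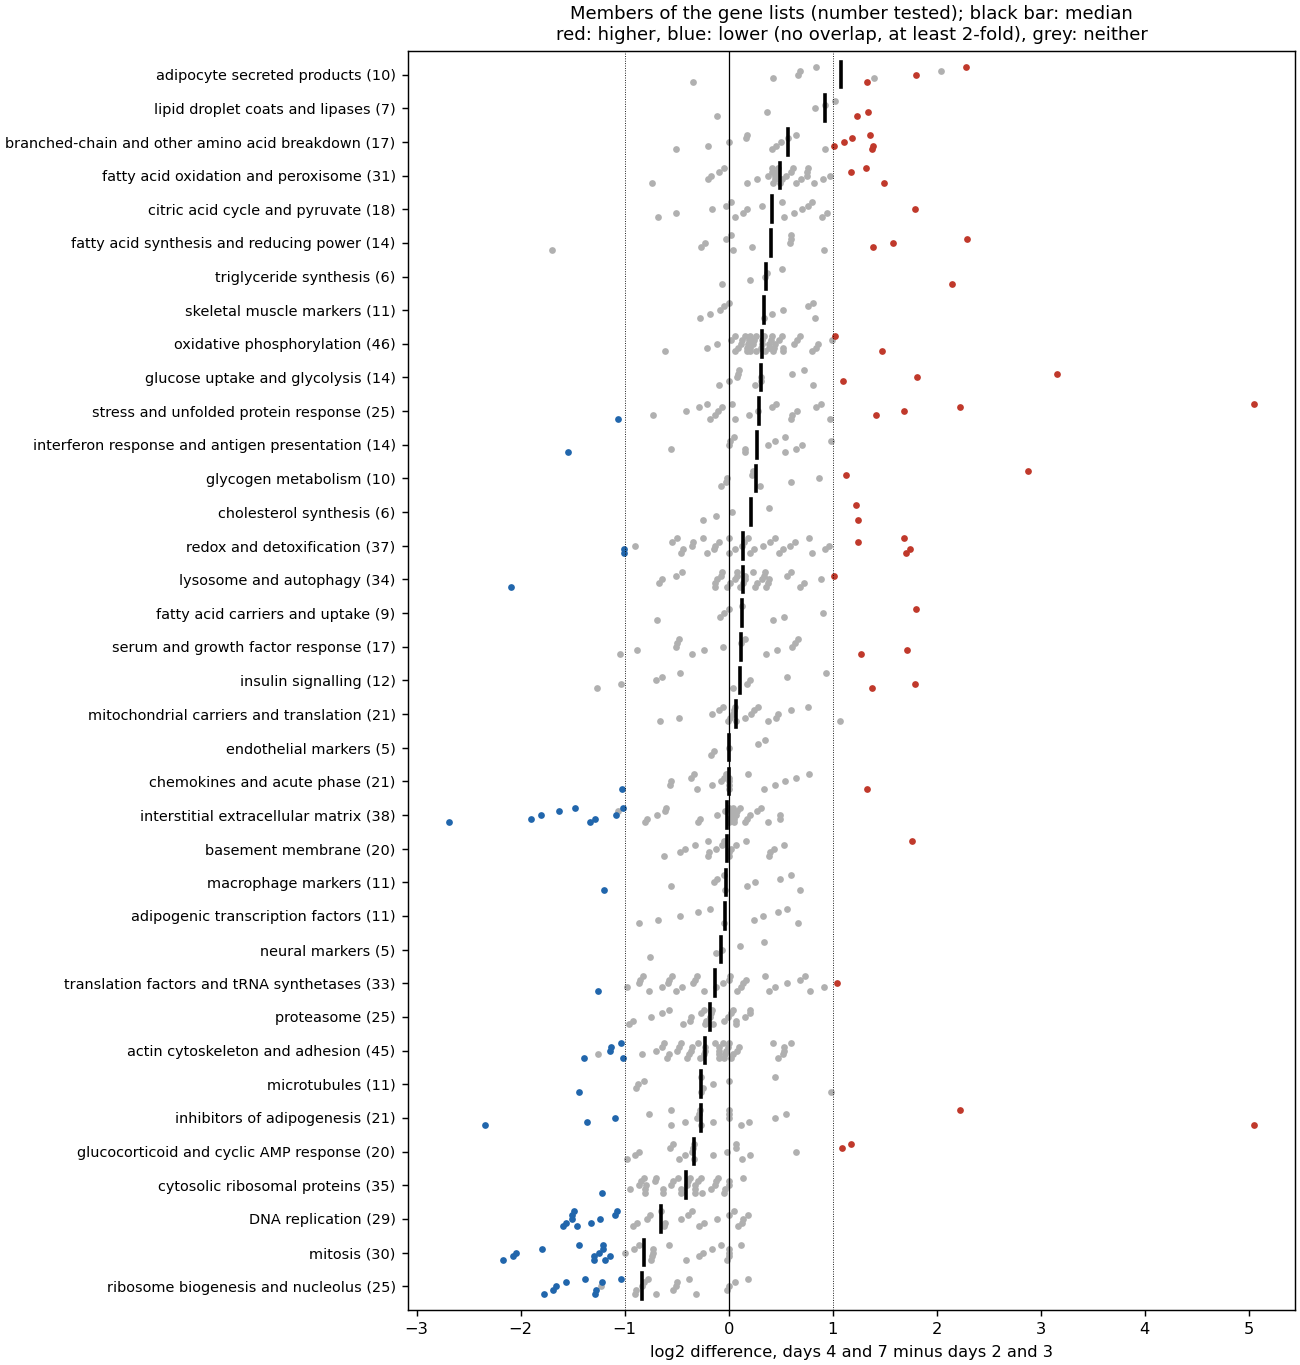
Log2 difference (days 4 and 7 minus days 2 and 3) of every tested member of the gene lists with at least 5 tested genes, ordered by their medians (black bars), with higher members red and lower ones blue. Adipocyte products lie at the top with a median of 1.08, and the nucleolar, mitosis and DNA replication lists lie at the bottom with medians of -0.83, -0.81 and -0.65.

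Other genes rose outside these lists. Reep6, a protein of the endoplasmic reticulum membrane, was at -407 and -15 and then at 791 and 1000 (at least 6.54-fold, limma adjusted p = 0.0124). The transcript 2610528A11Rik was at 102 and 86 and then at 694 and 1070, and reached 2880 on day 28 (adjusted p = 0.0146 by limma). Mxi1, a repressor that competes with Myc for its partner, was at 119 and 163 and then at 471 and 675 (limma, 0.0443). All 3 were near or below the floor at every time before day 4. Ly6h, Smim1 and Hoxb6 rose from the floor to between 318 and 675, with adjusted p-values of 0.0464, 0.0476 and 0.0464 by limma. Each gene named so far in this paragraph passed the brightness filter only through days 4, 7 and 28. Earlier values at or near the floor gave little or no spread to its limma SE and p. Josd2, annotated as a deubiquitinase, rose by 1 probe set, from -57 and 151 to 1050 and 1360 (limma adjusted p = 0.0303), while its other probe set went from 376 and 736 to 423 and 214. The Josd2 result therefore differed in sign between its probe sets.

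Slc29a1, the nucleoside transporter ENT1, had the largest difference downward. It had peaked at 7790 at 6 hours, was at 1750 and 894 on days 2 and 3 and at -10 and -247 on days 4 and 7, and returned to 2210 on day 28. Slc29a1 fell at least 9.20-fold (limma adjusted p = 0.0391). Ass1, the argininosuccinate synthase of arginine synthesis, was at 1950 and 1500 and then at 279 and 285, and stayed at 224 on day 28. Ass1 fell 6.06-fold, by 2.60 ± 0.23 log2 units (SE; limma adjusted p = 0.0144), from a probe set also annotated as reading several related genes. Mettl17, a mitochondrial methyltransferase-like protein, fell from 694 and 613 to 65 and 42 (limma adjusted p = 0.0443) and was back at 599 on day 28. Its other probe set went from 981 and 1230 to 363 and 695. Pglyrp1, a peptidoglycan recognition protein, fell from 396 and 436 to below the floor (limma adjusted p = 0.0443) and lay at 465 on day 28. Of these 4 genes only Ass1 was still low on day 28. For Slc29a1, Mettl17 and Pglyrp1 both of days 4 and 7 were set to the floor. That stage therefore gave no spread to their limma SE and p.

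Cell cycle genes were lower as a group. Of 30 tested mitosis genes 12 were lower and none higher, and 19 lay below without overlap (median -0.81). Of 29 DNA replication genes 10 were lower and none higher, with 16 below and 1 above without overlap (median -0.65). The medians of these lists had peaked earlier, at 24 hours for mitosis and 12 hours for replication. Leaving out 1 of the 4 days gave 11 to 15 lower mitosis genes, while the lower replication genes were 4 without day 2, 7 without day 7, 12 without day 4 and 14 without day 3. A doubled floor gave 8 and 4.

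Ccna2, which encodes cyclin A2, was at 3470 at 24 hours, at 1490 and 1230 on days 2 and 3 and at 417 and 217 on days 4 and 7, 4.50-fold lower. Racgap1, a regulator of cytokinesis, was at 1170 and 868 and then at 232 and 247. Ccnb2, a mitotic cyclin, was at 602 and 904 and then at 205 and 87. Mki67, the proliferation marker Ki-67, was at 1370 and 1270 and then at 518 and 279. All 4 were thus far below their 24-hour level but still measurable on days 2 and 3. Cks1b, a small subunit of cyclin kinases, was at 1220 and 899 and then at 220 and 674, and Nek2, a centrosome kinase, at 436 and 454 and then at 210 and 121. Ccnd1, cyclin D1, was at 1690 and 400 and then at 169 and 95, and returned to 571 on day 28. Cks1b was 1.56-fold lower without day 4.

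Among replication genes Mcm7, a subunit of the replicative helicase, was at 1510 and 851 and then at 430 and 344. Mcm5, another subunit, was at 608 and 231 and then below the floor. Rrm1, of the ribonucleotide reductase that supplies DNA precursors, was at 534 and 353 and then at 177 and 118. Tyms and Tk1, which make thymidine nucleotides, were at 545 and 560 against 189 and 199 and at 305 and 589 against 163 and -176. Top2a, a topoisomerase, was at 855 and 260 and then below the floor. Cad, the enzyme that starts pyrimidine synthesis, was at 735 and 555 and below 0 on days 4 and 7, at least 4.70-fold lower. Mcm5 and Top2a were at least 1.69-fold and at least 1.67-fold lower without day 2, against the floor. None of the cell cycle genes passed limma's adjusted p, the smallest of those named being 0.205, for Racgap1. The spread in that model also holds the swing of these genes between 6 and 24 hours.

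The promoter windows of the lower cell cycle genes were read for short letter motifs, since these genes moved together. RefSeq windows of GRCm38.p6, from 250 bases before to 50 after the annotated start, were found for 9 of the 12 lower mitosis genes (9 windows) and all 10 lower replication genes (11 windows). The cell cycle genes homology region, read as TTTGAA on either strand, occurred in 8 of the 9 mitosis windows, against 17.9% of all 32851 windows and 12.1% of those of tested genes. The CCAAT box, read as CCAAT on either strand, occurred in 7 of these 9 and in 9 of the 11 replication windows. Its share was 37.4% of all windows and 37.2% of those of tested genes. The E2F letters TTCCCGC on either strand occurred in 4 of the 11 replication windows and in none of the mitosis windows. Their share was 4.6% of all windows and 7.1% of those of tested genes. The motifs share no letters in the windows shown. Windows of 4 mitosis and 2 replication genes described above are printed here because they hold these letters, which are in capitals; such a match is a description of the sequence and does not show that a factor binds.
Ccnb2 (chr9:70421505-70421804, minus strand): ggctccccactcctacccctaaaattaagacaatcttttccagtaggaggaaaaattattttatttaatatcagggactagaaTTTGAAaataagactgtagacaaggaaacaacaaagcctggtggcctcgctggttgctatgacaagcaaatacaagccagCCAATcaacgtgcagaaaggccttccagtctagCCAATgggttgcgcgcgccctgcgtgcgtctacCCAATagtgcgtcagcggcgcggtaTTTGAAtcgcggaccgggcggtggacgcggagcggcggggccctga
Racgap1 (chr15:99651607-99651906, minus strand): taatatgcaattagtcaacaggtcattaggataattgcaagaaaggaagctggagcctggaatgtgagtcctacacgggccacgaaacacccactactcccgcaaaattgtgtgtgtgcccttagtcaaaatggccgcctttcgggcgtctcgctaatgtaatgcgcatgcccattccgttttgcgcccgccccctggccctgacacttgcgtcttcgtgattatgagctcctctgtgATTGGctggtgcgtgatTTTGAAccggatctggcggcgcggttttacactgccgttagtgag
Mki67 (chr7:135716330-135716629, minus strand): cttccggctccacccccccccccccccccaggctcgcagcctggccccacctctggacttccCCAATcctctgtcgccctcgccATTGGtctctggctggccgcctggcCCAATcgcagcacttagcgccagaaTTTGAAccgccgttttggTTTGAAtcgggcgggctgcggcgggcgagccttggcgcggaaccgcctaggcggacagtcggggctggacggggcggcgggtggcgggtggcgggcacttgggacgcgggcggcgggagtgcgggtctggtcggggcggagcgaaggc
Cks1b (chr3:89418242-89418541, minus strand): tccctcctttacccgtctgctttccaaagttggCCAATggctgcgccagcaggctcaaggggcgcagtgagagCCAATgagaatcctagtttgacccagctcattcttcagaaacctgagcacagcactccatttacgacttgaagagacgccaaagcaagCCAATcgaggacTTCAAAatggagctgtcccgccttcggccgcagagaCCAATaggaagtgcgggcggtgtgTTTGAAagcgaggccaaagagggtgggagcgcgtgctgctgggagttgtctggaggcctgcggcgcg
Mcm7 (chr5:138171834-138172133, minus strand): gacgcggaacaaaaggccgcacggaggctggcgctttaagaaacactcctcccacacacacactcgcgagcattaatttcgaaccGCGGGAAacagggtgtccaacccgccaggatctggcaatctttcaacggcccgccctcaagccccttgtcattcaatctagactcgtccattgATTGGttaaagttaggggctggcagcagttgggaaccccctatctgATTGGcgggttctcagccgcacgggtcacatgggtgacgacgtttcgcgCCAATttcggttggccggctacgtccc
Rrm1 (chr7:102441445-102441744, plus strand): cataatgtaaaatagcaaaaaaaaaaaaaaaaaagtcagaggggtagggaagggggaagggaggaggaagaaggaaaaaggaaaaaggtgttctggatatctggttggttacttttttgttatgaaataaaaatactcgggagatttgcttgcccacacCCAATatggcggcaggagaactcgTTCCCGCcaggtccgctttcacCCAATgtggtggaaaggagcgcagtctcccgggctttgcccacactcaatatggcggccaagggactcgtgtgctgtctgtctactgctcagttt

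In the windows of Ccnb2, Mki67 and Cks1b the TTTGAA letters occur 2 times each, and in that of Racgap1 once. Mcm7 has another window, which also holds the E2F letters. Of all 181 lower genes, 157 matched and 20.0% of their 200 windows held TTTGAA, beside 12.1% for tested genes. The CCAAT letters occurred in 42.5% of these 200 windows and in 43.0% of the 151 windows of the higher genes. The E-box letters CACGTG, also read, occurred in 1 of the 9 mitosis and 1 of the 11 replication windows. The C/EBP-ATF letters TTGCATCA occurred in none of them.

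Transcripts of the nucleolus were lower too. Of 25 tested genes of ribosome biogenesis and the nucleolus 9 were lower and none higher, 16 lay below without overlap, and the median of -0.83 was the lowest of all 39 lists. Fbl, the nucleolar methyltransferase fibrillarin, was at 4040 and 2620 and then at 1370 and 739. Nop56, its partner in the same particle, was at 1110 and 665 and then at 223 and 281. Gar1, of the particles that make pseudouridine, was at 2020 and 1580 and then at 554 and 579. Bop1, Ebna1bp2 and Nolc1, further nucleolar proteins, were 2.95-fold (at least), 2.61-fold and 2.44-fold lower. In contrast to the cell cycle genes, the nucleolar list had its highest median on day 2, at 0.58 log2 units above the genes' own means, and its lowest on day 28, at -0.94. The lower nucleolar genes were 8 to 14 when 1 of the 4 days was left out, 14 of them without day 3. Nolc1 was 1.91-fold lower without day 2. The cytosolic ribosomal proteins were lower by less: 18 of 35 lay below and 1 above without overlap, the median was -0.41, and Rps26 alone passed the 2-fold minimum, at 3040 and 2140 against 1960 and 610. Among 33 translation factors and tRNA synthetases the elongation factor subunit Eef1d was lower, at 7400 and 5680 against 2750 and 2690. Eif4ebp1, the repressor of cap-dependent translation, was higher, at 5040 and 8370 against 12400 and 14400. The median of the ribosomal proteins was -0.12 without day 7, with none lower, and -0.68 without day 4, with 8 lower. It was -0.32 without day 2, with none lower, and -0.54 without day 3, with 5 lower. Among the translation factors 3 were higher and 6 lower without day 3, and 5 and 4 without day 4. Rps26 was 1.96-fold lower without day 2 and 1.30-fold without day 7, and Eif4ebp1 was 1.59-fold and 1.91-fold higher without these days.

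**Figure D5:**
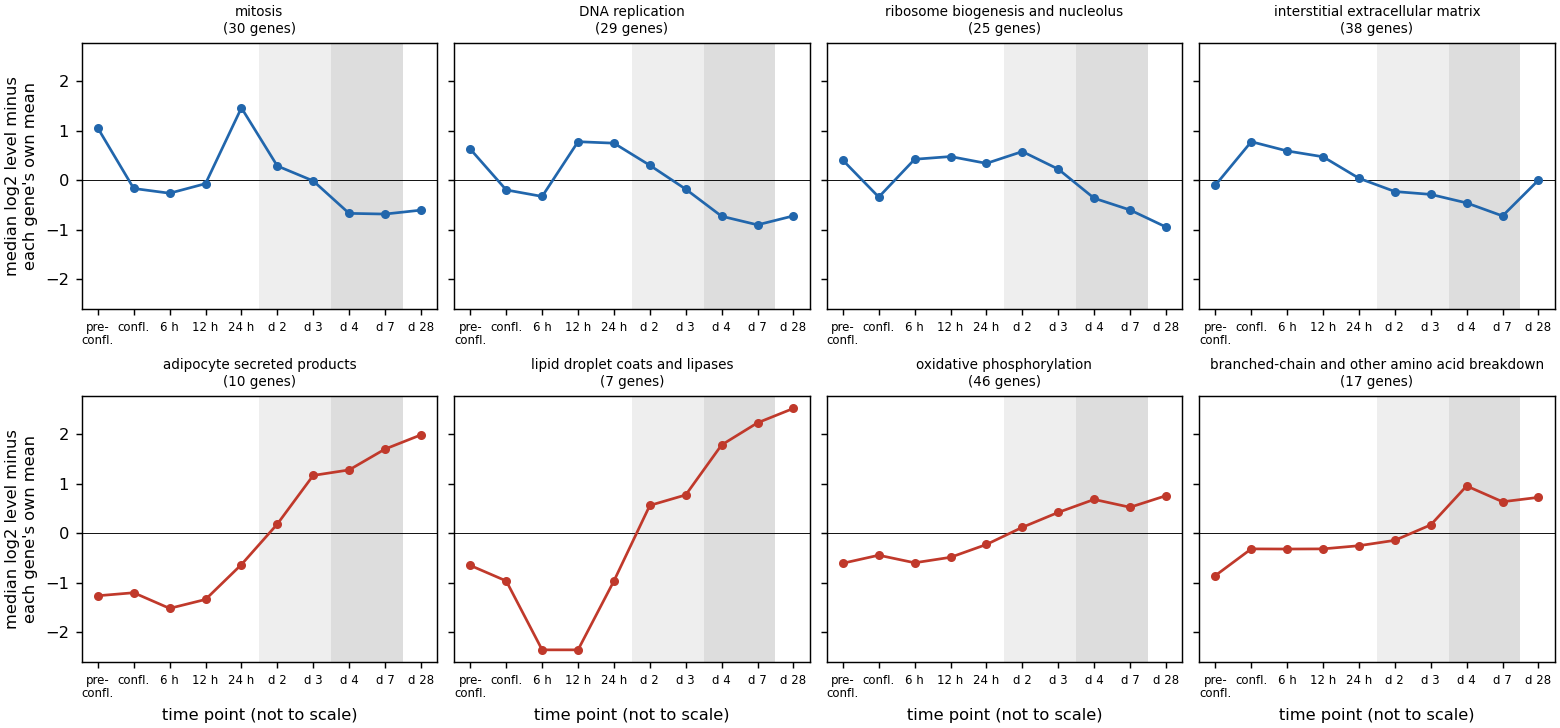
Median log2 level of 8 gene lists, relative to each gene's own mean, over the 10 time points, with days 2 and 3 in light grey and days 4 and 7 in dark grey. The mitosis list peaks at 24 hours and the nucleolar list on day 2, while the interstitial matrix list is lowest on day 7 and comes back on day 28.

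Matrix genes split into lower and steady members. Of 38 tested genes of the interstitial matrix 9 were lower and none higher, 14 lay below and 6 above without overlap, and the median was -0.02. Vcan, the proteoglycan versican, was at 5470 and 2070 and then at 993 and 273 by its brightest probe set. A further Vcan probe set was 3.80-fold lower, while a dim one near the floor gave a difference of 0.44 in the other direction. Mmp2, the gelatinase, was at 17900 and 9990 and then at 5390 and 4270. Timp1, an inhibitor of such proteases, was at 1820 and 1790 and then at 729 and 322. Mgp, matrix Gla protein, was at 1140 and 1620 and then at 601 and 319. The last 3 were back up on day 28, at 11400, 8270 and 5820, above days 2 and 3 for Timp1 and Mgp. Adamts1, a protease that cuts versican, was at 2420 and 1070 and then at 637 and 332, and Loxl1, an elastin crosslinker, at 5730 and 3190 and then at 2510 and 1150. Loxl1 was below 2-fold without day 2 and without day 7 (1.88-fold and 1.71-fold).

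The fibrillar collagens did not follow. Col1a1 measured 4050 and 6540 against 4990 and 5520, and Col3a1 measured 7790 and 9860 against 9240 and 9150. Their differences were 0.03 and 0.07 log2 units with overlapping sides. Of the other fibroblast markers, Fn1, fibronectin, measured 7220 and 4610 against 2720 and 5210, and Thy1, a surface glycoprotein, measured 2500 and 1580 against 1620 and 674, both with overlap. Vim, vimentin, lay below without overlap by a small amount, at 6780 and 7410 against 6750 and 6180. Both growth factor receptors, Pdgfra at 394 and 84 against 38 and -25 and Pdgfrb at 298 and 511 against 199 and 354, were dim on these days. Col15a1, a basement membrane collagen, was the 1 higher gene among 20 of that list, at 248 and 683 and then at 1250 and 1550. Of 45 actin and adhesion genes 5 were lower and none higher (median -0.23). They were Tpm3, a tropomyosin, Tagln2, a transgelin, Ezr, the membrane linker ezrin, Actn1, an actinin, and Lima1, between 2.03-fold and 2.62-fold (at least) lower. The lower count was 3 without day 2 or day 4, 6 without day 3 and 8 without day 7. Tubb5, a beta tubulin, was at 5110 and 3880 and then at 2560 and 1060. Tpm3 and Tubb5 were at 1.89-fold and 1.74-fold without day 7, and Tagln2, Ezr and Actn1 were at 1.58-fold, 1.74-fold and 1.42-fold without day 2. Without day 4 the folds of Tagln2, Ezr and Actn1 were 1.93, 1.96 and 1.79. Lima1 was at 1.89-fold without day 3 and 1.32-fold without day 4.

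Some inhibitors of adipogenesis and several other regulators were lower. Dlk1, the preadipocyte protein Pref-1, was at 3910 and 1970 and then at 1700 and 685, and returned to 3140 on day 28. Id1, an inhibitor of basic helix-loop-helix factors, was at 5140 and 4850 and then at 3250 and 1680. Prrx2, a mesenchymal homeobox factor, was at 1470 and 796 and then at 218 and 142, at least 5.87-fold lower (limma adjusted p = 0.0759). Fgfr2, a fibroblast growth factor receptor, was at 1090 and 504 and then at 118 and -206. Its other probe set went from 3070 and 1800 to 1020 and 1250. Both Fgfr2 probe sets were highest on day 2, after -3 and 41 and after 1260 and 1400 in preconfluent and confluent cells. Fstl1, a follistatin-like secreted protein, was at 2250 and 1030 and then at 505 and 239. Of 21 listed inhibitors of adipogenesis 3 were lower (Ccnd1, Dlk1 and Id1) and 2 higher, the latter being Ddit3 and Trib3. The lower count was 5 without day 3, 2 without day 2 and 1 without day 7. Cxcl12, a chemokine of stromal cells, was at 2640 and 1780 and then at 1470 and 772. Hexa, a lysosomal hexosaminidase, was at 1030 and 600 and then at 229 and 148. Rpp25l, an RNase P subunit homologue, was at 2300 and 2510 and then at 1340 and -1670. Without day 7 the folds of Dlk1, Id1, Cxcl12 and Rpp25l were 1.64, 1.54, 1.47 and 1.79, and without day 2 those of Dlk1 and Cxcl12 were 1.83 and 1.67.

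Redox genes held calls in both directions. Of 37 tested genes 4 were higher and 2 were lower (median 0.14), against 3.60% and 4.40% of all named genes. The lower count was thus near the share over all genes. The higher ones beside Hmox1 were Ephx2, soluble epoxide hydrolase, at 209 and 129 against 281 and 1130, the glutathione transferase Gstm1, at 576 and 2070 against 2590 and 4920, and the carbonyl reductase Cbr1, at 745 and 1230 against 2980 and 1730. The lower ones were Xdh, xanthine dehydrogenase, at 8850 and 5200 against 3380 and 3390, and Cyp1b1, at 3880 and 2720 against 2180 and 1200. Ephx2 and Cyp1b1 were short of 2-fold without day 7 (at least 1.67-fold and 1.49-fold). Gstm1, Cbr1, Xdh and Cyp1b1 did so without day 2 (1.73-fold, 1.84-fold, 1.54-fold and 1.68-fold), and Cbr1 without day 4 (1.80-fold). The lower count was 0 of 37 without day 2, and the higher count was 2 without day 2 or day 7, 8 without day 3 and 7 without day 4. Of 20 tested genes of the glucocorticoid and cyclic AMP response, 2 were higher and none lower, while 13 had a difference below 0, 3 lay above and 3 below without overlap, and the median was -0.33. That median was -0.05 without day 2 and 0.02 without day 7, and the lower count was 4 without day 4. Hsd11b1, which regenerates active glucocorticoid, was at 4550 and 8050 and then at 12900 and 12800. Mt2, a metallothionein, was at 12500 and 4860 and then at 18300 and 17000, and back at 4770 on day 28. Vegfa, the vascular growth factor, was at 370 and 844 and then at 1540 and 2190, and Fosl1, an AP-1 subunit, at 465 and 146 and then at 719 and 591. Hsd11b1 was 1.59-fold higher without day 2, and Mt2 and Fosl1 were 1.41-fold and 1.40-fold higher without day 3.

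Day 28, which the comparison did not use, kept part of the differences. Of the 247 higher probe sets 73 lay beyond the levels of days 4 and 7 on day 28, 84 within them, 51 between the sides and 39 back in the range of days 2 and 3 or past it. Of the 303 lower ones 44 lay beyond, 123 within, 74 between and 62 back. Days 4 and 7 stood above all 8 other time points for 67 higher probe sets, Ddit3, Reep6, Trib3 and Gstz1, a glutathione transferase chosen here after its values were seen, among them. They stood below all 8 others for 106 lower probe sets, Slc29a1, Timp1 and Mgp among them.

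Markers of other cell types gave little. Of 11 tested macrophage markers none was higher and C1qc was lower, at 405 and 317 against 147 and 157; their summed level was 10062 and 10369 on days 2 and 3 and 13476 and 12558 on days 4 and 7, with Lgals3, which other cells also express, at 4440 and 5580 against 7210 and 7930. Endothelial markers summed to 1551 and 1605 against 1716 and 1373 and skeletal muscle markers to 7159 and 6093 against 6964 and 7155, with no member called. Of 7 brown fat markers with a probe set 2 were tested, and Cox8b, a subunit of cytochrome oxidase found in brown fat and muscle, was higher, at -15 and -316 against 167 and 1910. Cox8b reached 6610 on day 28. Without day 7 Cox8b was at least 1.23-fold higher, against the floor. The part of macrophage-type transcripts in other results was not tested.

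Probe sets of the same gene mostly pointed the same way. Of 84 genes with several tested probe sets and at least 1 call by the size rule, 70 had all probe sets in the same direction. A probe set with a difference of exactly 0 occurred in 6, and none had calls in both directions. In only 15 of the 84 genes did every probe set meet the rule. Of genes described here, Actn1, Fosl1, Id1, Ifi204, Mgp, Pccb, Top2a and Tpm3 had a further probe set that did not meet it. That of Mgp lay at the floor on all 4 days. For 32 of the 84 genes the probe sets were spread over both array types, separate hybridisations. The direction was shared in 28 of these and differed in 3, and 1 had a probe set with no difference. The 8 genes with probe sets in different directions were Adam10, Bcl2l2, Bsg, Josd2, Pycrl, Selp, Tsc2 and Vcan.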

How the data were processed

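RNA was extracted with Trizol and biotinylated cRNA was made from 10 µg of total RNA, per the labels. The values are Affymetrix intensities on a linear scale, 1 array per time point and array type, as deposited by the authors. The software and scaling behind them are not given in the sources used here, and values below 0 occur.

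Of 13069 probe sets that are not controls, 7542 carried 1 gene symbol in GEO's platform annotation, 224 several and 5303 none, and no symbol was updated. The floor on each array type was the size of the 10th percentile of its values, which is below 0, with the sign turned. A probe set was tested when 2 or more of the 10 samples exceeded its array type's limit, which was the larger of that floor and the median of all values. Array types were fitted separately with limma 3.58.1 in R 4.3.3 (lmFit and eBayes on log2 values) in 5 stages: preconfluent and confluent cells, 6 to 24 hours, days 2 and 3, days 4 and 7, and day 28. Benjamini-Hochberg adjustment ran over both types together. The fit was also run on simulated data with independent spread and no values at the floor. That run cannot speak for calls in which a side lay at the floor. With no replicates, precision is limited by the number of arrays.

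Where 1 side of a comparison lay wholly at the floor, or part of it did, the fold is against the floor and is printed as "at least". A gene with several probe sets was read from the one with the highest mean log2 level, and the probe sets of other genes with similar sequence can share signal where the maker marks a family. The members and the 39 gene lists were chosen with earlier results of these data known. Named are the 12 probe sets with the largest difference in each direction, the 6 with the largest gap, the limma calls, up to 6 called members of each list with its brightest member, and the marker genes. Genes of a list printed outside this rule were chosen after their values were seen. Alternatives covered the floor, the scaling, the filter, the fold minimum, the time points used, the model and the choice of probe set. Promoter sequences are from RefSeq.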

Additional observations from a re-analysis of the deposited data

How the results depend on the processing

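No paired analysis was possible because each time point was 1 sample of an array type. The 550 probe sets of the size rule, 303 of them lower, became 331 with the floor doubled (175 lower), 809 with it halved (373 higher), 1403 at 1.5-fold (668 higher and 735 lower), 148 at 3-fold (80 and 68) and 573 to 1093 with 1 of the 4 days left out. By limma the 13 probe sets up became 7 with an intensity trend and robust variances, 31 with a linear trend over the 4 days and 1 to 80 with a day left out. The 8 down became 3 with the floor doubled, 3 with no filter, 5 with day 28 beside days 4 and 7, 5 with an intensity trend, 20 with a linear trend and 0 to 37 with a day left out, the 0 occurring without day 2 (191 at an unadjusted p under 0.05) and without day 7 (357). With only the 4 days in the fit, limma called 0 up and 0 down, against 440 and 409 at an unadjusted p under 0.05. The cause of these shifts was not tested. Of the 21 limma calls, 20 were kept with median centring and 20 with quantile normalization, 13 with the floor halved, 6 with it doubled and 8 with no filter.

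Of 108 named probe sets that met the size rule, 33 missed it without day 2, 4 without day 3, 11 without day 4, 17 without day 7, 20 with the floor doubled, 18 with day 28 on the later side, 4 with median centring (Actn1, Cxcl12, Cyp1b1 and Lima1) and 2 with quantile normalization (Lima1 and Uqcrc2). None changed sign under these settings. Of 37 list medians, between 30 and 37 moved by less than 0.25 log2 units under each setting. Signal near background limits the dim genes, whose folds depend on the floor.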

Other observations

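Genes that cells switch on when amino acids or protein folding fail, under the factor ATF4, formed a group that the lists above held only in part. This set of 29 genes was drawn up after the Ddit3 and Trib3 values were seen and counts both, so its counts are a description. Of its 21 tested genes 10 were higher and none was lower, against 3.60% and 4.40% of all named genes. Among the 10, Ddit3, Trib3, Herpud1, Vegfa and Eif4ebp1 were also members of earlier lists. Of the 21, 13 lay above without overlap, 8 overlapped, and the median difference was 0.92 log2 units. With a day left out, a check added after the values were seen, the higher count was 5 without day 2 (median 0.56), 8 without day 7 (median 0.71, with 1 lower) and 12 without day 3 or day 4. Psat1, Phgdh and Pck2, enzymes of serine and phosphoenolpyruvate synthesis, were lowest on day 2 and had already climbed by day 3. In preconfluent cells they had been at 4110, 4370 and 767. Phgdh measured 454 and 2440 on days 2 and 3 and 3380 and 3820 on days 4 and 7, Psat1 measured 797 and 3510 against 4260 and 4670, and Pck2 measured 165 and 700 against 872 and 1200. Without day 2 the folds of Phgdh, Psat1 and Pck2 were 1.47, 1.27 and 1.46, below the 2-fold minimum. A later course was seen for Ppp1r15a, a regulatory subunit of the phosphatase that restores translation, at -111 and -105 and then at 213 and 1010, at least 2.97-fold higher. Without day 7 it was at least 1.37-fold higher. Gtpbp2, a GTPase, followed with 280 and 338 against 640 and 1040. Atf4 itself, at 2500 and 1910 against 2830 and 3910, lay above without overlap. It had been at 3690 and 4280 in preconfluent and confluent cells. Asns, asparagine synthetase, overlapped, at 2470 and 2880 against 5020 and 2510. So did Aars, an alanyl-tRNA synthetase, at 2260 and 3710 against 3570 and 6100. In preconfluent cells Asns had been at 4930 and Aars at 5870. Ddit3, Trib3, Gtpbp2 and Ppp1r15a, among others of the set, were highest on day 7.

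The proteasome genes mostly lay below by small amounts, with none of 25 called and a median of -0.18 log2 units. Without overlap 9 lay below and 0 above, against 18.7% and 18.1% of all genes. Their median was -0.01 without day 7 and -0.27 without day 4. Of 14 tested genes of the interferon response and antigen presentation 11 had a difference above 0, 4 lay above and 1 below without overlap, and the median was 0.27. None was higher by the rule with all 4 days, but 4 were without day 4 and 2 without day 3. Over all 7582 probe sets the higher count also grew, from 247 to 545 without day 4 and 471 without day 3. Ifi204, an interferon-induced gene, was the only lower member, at 855 and 734 on days 2 and 3 against 473 and 151 on days 4 and 7, and without day 7 its fold was 1.67.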
